A study of Mus musculus with 3 samples.

Results

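The 9 genes described here encode enzymes of fatty acid beta-oxidation: Cpt1a, Acadvl, Acadl, Acadm, Acads, Acadsb, Hadha, Hadhb and Acox3. They were taken by symbol from the deposited count table, where each has 1 row, 9 of 39179 genes in all. The data are RNA immunoprecipitations from Flag-FTO transgenic mice on a C57BL/6 background, 16 weeks old, whose white fat was lysed after an overnight fast. FTO demethylates adenosines in RNA. The 2 Flag-IP libraries (Flag-IP 1 and Flag-IP 2) hold RNA that came down with an anti-Flag M2 monoclonal antibody, and the 1 IgG-IP library holds RNA that came down with IgG. All libraries come from transgenic mice, and no library from mice without the tag was analysed here. The labels give neither the promoter of the transgene nor the fat depot nor the number of mice behind each library, so p-values measure only the spread between these libraries, which may be technical.

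Beta-oxidation shortens fatty acids from the carboxyl end, and each round releases acetyl-CoA and passes electrons to the respiratory chain. Long-chain acyl groups enter mitochondria as carnitine esters, then pass through an acyl-CoA dehydrogenase chosen by chain length, a hydratase, a hydroxyacyl-CoA dehydrogenase and a thiolase. Peroxisomes run a parallel route that starts with an acyl-CoA oxidase and handles very long and branched chains. In white fat, fasting releases stored fatty acids, most of which leave the adipocyte to be oxidized in other tissues.

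The libraries held 98227791 and 95824218 counts in Flag-IP and 74176962 in IgG-IP. A group of 28 genes, each reaching 100000 counts somewhere, took 97.6% of the counts in each Flag-IP library and 97.0% in IgG-IP, so the median tested gene had 24 and 26 counts in Flag-IP and 25 in IgG-IP. Over all 17587 tested genes, edgeR's quasi-likelihood test with Benjamini-Hochberg adjustment put 5.58% higher and 5.77% lower in Flag-IP at an adjusted p under 0.05. Of markers for the labelled tissue, all 12 listed white adipocyte genes, Adipoq, Plin1 and Lpl included, had counts in all 3 libraries. Such presence does not single out fat. The hepatocyte genes Alb (8 and 13 counts in Flag-IP against 19 in IgG-IP) and Cyp2e1 (19 and 14 against 8) had it too. Some adipocyte levels were low, with Adipoq at 18 and 14 counts in Flag-IP against 3 in IgG-IP and Fabp4 at 30 and 17 against 19. Of the 11 white adipocyte genes that were tested, 2 were higher in Flag-IP and 9 did not pass. In either direction, 6 of the 11 had an unadjusted p under 0.05 in edgeR, where 24.7% of all tested genes did. Both Flag-IP libraries lay above IgG-IP in normalized counts for 6 of the 11 and below it for 2, Cidec and Pparg. All 12 together had 5846 and 3958 normalized counts in Flag-IP against 3061 in IgG-IP. Aqp7, the glycerol channel of adipocytes, moved that sum most (2081 and 1615 normalized counts in Flag-IP against 185 in IgG-IP), and the other 11 had 3766 and 2343 in Flag-IP against 2877 in IgG-IP.

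Of the 9 oxidation enzymes, all of which passed the filter on low counts, 1 was higher in Flag-IP (Acadl), 1 was lower (Hadhb) and 7 did not pass the edgeR test. Both Flag-IP libraries lay above IgG-IP in normalized counts for 3 enzymes, where 40.5% of all tested genes did, and below it for 3, where 39.0% did. The median log2 fold change of the enzymes was 0.22, against 0.03 over all tested genes. Under total-count scaling these medians were lower, at -0.29 for the enzymes and -0.48 for all genes. A normalized count is the count scaled to a library of average effective size. All fold changes are Flag-IP over IgG-IP.

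The following sequences show the 5-base word GGACT, a common form of the context in which adenosine is methylated in mRNA, for the enzymes that passed the test. They are from GENCODE M21 (GRCm38), written 5′ to 3′ as mRNA-sense DNA with the word in capitals. Acadl, on chromosome 1, carries it at codons 112 and 360 of its coding sequence. Hadhb, on chromosome 5, carries it at positions 26 and 59 of the mRNA, in the 5′ untranslated region.
Acadl codon 112: cggcattggtggGGACTtgctctcaacag
Acadl codon 360: aaccaaacgtctGGACTccggttctgctt
Hadhb position 26: gtttgtcagtctGGACTtgaccttgttgg
Hadhb position 59: ggcagttttcgcGGACTctaaggtgcggc

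The word was counted on the sense strand of 1 annotated mRNA per gene. Acadl and Hadhb each held it 2 times, or 1.04 and 0.977 per kb, and the median over 14920 tested protein-coding mRNAs was 1.04 per kb. It occurred in 92.1% of those mRNAs. Among the other enzymes the rate ran from 0.461 per kb in Acadvl to 2.26 per kb in Acox3, which held 9 copies. A match is a description of the letters, and no methylation was measured in these libraries.

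The entry step is carried by Cpt1a, the outer-membrane carnitine palmitoyltransferase that makes acylcarnitines and controls the flow of long-chain fatty acids into mitochondria (GRCm38, chromosome 19, 3322334 to 3385733). It had 43 and 64 counts in Flag-IP against 50 in IgG-IP, or 46.3 and 63.4 normalized counts against 47.1. The Flag-IP libraries lay on either side of the IgG-IP library. Its log2 fold change of 0.22 ± 0.37 (SE) did not pass (edgeR adjusted p = 0.760). Flag-IP over IgG-IP was 1.17 with a 95% counting interval of 0.830 to 1.67, which covers counting error only.

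Acadl, the long-chain acyl-CoA dehydrogenase of the mitochondrial matrix (chromosome 1, 66830839 to 66863277), had 220 and 173 counts in Flag-IP against 42 in IgG-IP. In normalized counts these were 237 and 171 in Flag-IP against 39.6 in IgG-IP. Both Flag-IP libraries were far above IgG-IP, and they differed from each other by 1.38-fold (Flag-IP 1 over Flag-IP 2), with a 95% counting interval that starts at 1.13 and so excludes 1. On the log2 scale the difference was 2.36 ± 0.30 (SE; edgeR adjusted p = 9.60e-13). Single-library log2 ratios to IgG-IP, computed with a prior count of 2, were 2.52 in Flag-IP 1 and 2.06 in Flag-IP 2. Other messenger RNAs had larger increases: by fold change Acadl ranked 435 of the 14920 tested protein-coding genes. Among the 4448 that averaged 50 counts or more Acadl ranked 22, but it met that filter through Flag-IP, with 42 counts in IgG-IP. Its exons overlap those of no other gene in the table (0 bases shared with the pseudogene and the small RNA gene inside its introns). The comparison is of RNA recovered with anti-Flag against RNA recovered with IgG, and the cause of the Acadl difference was not tested. RNA from more cells of a type and more RNA per cell cannot be told apart in these libraries either.

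Acadl took a larger share of the counts of the 9 enzymes in Flag-IP than in IgG-IP. This comes from the same counts as its fold change, but no scaling between libraries can change it. Acadl held 58.8% and 46.3% of the counts of the 9 enzymes in Flag-IP, against 16.5% in IgG-IP. The 95% exact Clopper-Pearson intervals were 53.6% to 63.9% and 41.1% to 51.5% in Flag-IP and 12.1% to 21.6% in IgG-IP. The other 8 enzymes together had 166 and 199 normalized counts in Flag-IP against 201 in IgG-IP. In that net sum without Acadl, in which Acads and Acox3 were above and Acadm, Acadsb and Hadhb below IgG-IP in both libraries, neither Flag-IP library exceeded IgG-IP. Per kb of mRNA, Acadl stood at 124 and 89.4 normalized counts in Flag-IP against 20.6 in IgG-IP. That level was higher than in 97.2% and 96.2% of the tested protein-coding genes in the Flag-IP libraries and in 78.0% of them in IgG-IP. On this per-length scale Acadl came before Cpt1a in Flag-IP (10.7 and 14.7 normalized counts per kb), with Hadhb at 7.36 and 11.1. In IgG-IP Hadhb came first (24.8, from 54 counts) and Acadl after it (20.6, from 42 counts), followed by Acadm and Cpt1a (10.9). The lowest levels per kb were those of Acadsb in Flag-IP 1 (3.72) and of Acadvl in Flag-IP 2 (0.914) and IgG-IP (1.74).

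**Figure D1:**
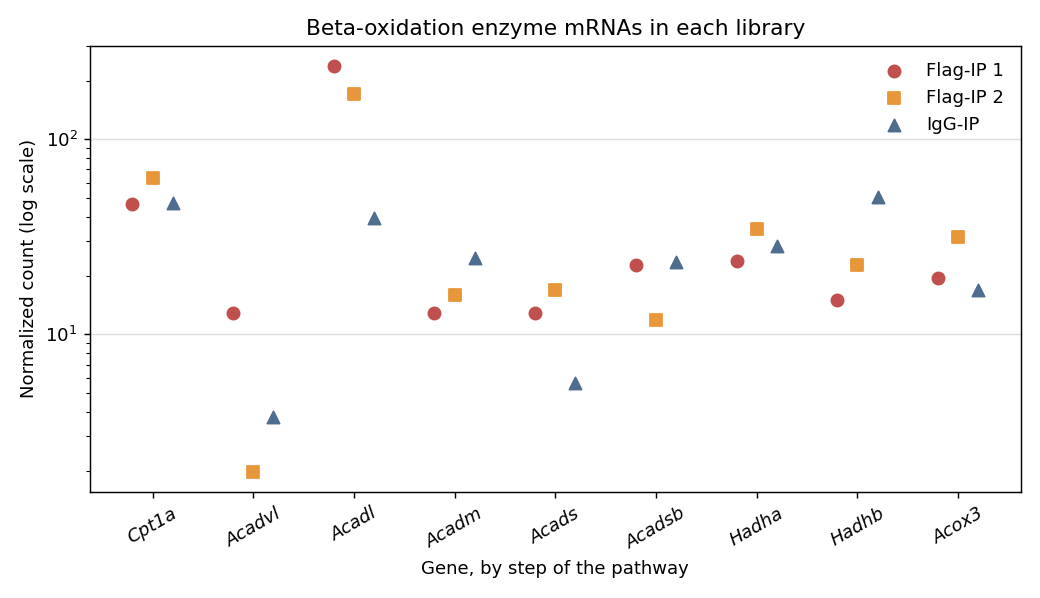
Normalized counts (log axis) of the 9 enzymes in Flag-IP 1 (circles), Flag-IP 2 (squares) and IgG-IP (triangles), ordered by step of the pathway. Acadl stands at 237 and 171 in Flag-IP against 39.6 in IgG-IP, Hadhb is below IgG-IP in both Flag-IP libraries, and Acadvl has few counts and a wide spread.

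Acadm, the medium-chain acyl-CoA dehydrogenase (chromosome 3, 153922357 to 153944632), had 12 and 16 counts in Flag-IP against 26 in IgG-IP. Both Flag-IP libraries were below IgG-IP, at 12.9 and 15.8 normalized counts against 24.5. Its log2 fold change of -0.76 ± 0.60 (SE) did not pass (edgeR adjusted p = 0.463). Acadl and Acadm encode enzymes of the same family, and their counts stood in different proportions in the 2 kinds of library. There were 18.3 and 10.8 Acadl counts per Acadm count in Flag-IP (95% exact intervals 10.3 to 36.0 and 6.47 to 19.3) against 1.62 in IgG-IP (0.968 to 2.74). The contrast was less clear with Acads, of the same family, at 18.3 and 10.2 Acadl counts per Acads count in Flag-IP against 7 in IgG-IP. For that pair the IgG-IP interval (2.96 to 20.1) overlapped both Flag-IP intervals (10.3 to 36.0 and 6.17 to 17.9).

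Acads, the short-chain acyl-CoA dehydrogenase (chromosome 5, 115110299 to 115119346), had 12 and 17 counts in Flag-IP against 6 in IgG-IP, or 12.9 and 16.8 normalized counts against 5.65. Both Flag-IP libraries were above IgG-IP, but the difference of 1.38 ± 0.91 (SE) on the log2 scale did not pass (edgeR adjusted p = 0.356). The counting interval of the ratio ran from 1.08 to 7.80.

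Acadvl, the very-long-chain acyl-CoA dehydrogenase bound to the inner mitochondrial membrane (chromosome 11, 70010183 to 70015411), had 12 and 2 counts in Flag-IP against 4 in IgG-IP. The Flag-IP libraries straddled IgG-IP, and Flag-IP 1 was 6.52 times Flag-IP 2 after scaling, with a counting interval of 1.45 to 60.0. A log2 fold change of 0.94 ± 1.50 (SE) did not pass (edgeR adjusted p = 0.752). On the opposite strand 1151 of the 2686 exon bases of Acadvl overlap exons of Dvl2, a Wnt signalling gene with 19 and 12 counts in Flag-IP against 0 in IgG-IP. Whether counting used strand is not known, so the counts of Acadvl are uncertain.

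Acadsb, the dehydrogenase for short branched acyl-CoAs, which acts in isoleucine breakdown (chromosome 7, 131410601 to 131448944), had 21 and 12 counts in Flag-IP against 25 in IgG-IP. Normalized counts were 22.6 and 11.9 in Flag-IP against 23.5 in IgG-IP, so Flag-IP 1 lay just under IgG-IP and Flag-IP 2 well under it. This gave -0.46 ± 0.58 (SE) on the log2 scale (edgeR adjusted p = 0.680). All 38344 bases of the gene lie inside the annotated span of Fgfr2 on the opposite strand, a receptor gene with 11400 and 11481 counts in Flag-IP against 7737 in IgG-IP. Exons of the 2 genes do not overlap (0 bases).

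Hadha and Hadhb encode the alpha and beta subunits of the mitochondrial trifunctional protein, which carries out the hydratase, dehydrogenase and thiolase steps for long chains. The genes point away from each other on chromosome 5, with Hadha at 30118304 to 30155162, Hadhb at 30155248 to 30184593 and 85 bases between them. Hadha had 22 and 35 counts in Flag-IP against 30 in IgG-IP, or 23.7 and 34.7 normalized counts against 28.3. The Flag-IP libraries lay on either side of IgG-IP, and the log2 fold change was 0.05 ± 0.48 (SE; edgeR adjusted p = 0.963). Of the 8730 exon bases of Hadha, 75 overlap Gareml on the opposite strand (20 and 11 counts in Flag-IP against 20 in IgG-IP).

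Hadhb had 14 and 23 counts in Flag-IP against 54 in IgG-IP. Normalized counts were 15.1 and 22.8 in Flag-IP against 50.9 in IgG-IP, so both Flag-IP libraries were well below. Hadhb was lower by edgeR, at -1.41 ± 0.45 (SE) on the log2 scale and an adjusted p of 0.0227. Within libraries there were 0.636 and 0.657 Hadhb counts per Hadha count in Flag-IP (95% exact intervals 0.301 to 1.30 and 0.371 to 1.14), against 1.80 in IgG-IP (1.13 to 2.91). At its lower end the IgG-IP interval overlapped both Flag-IP intervals. The coding sequence of Hadhb has a processed pseudogene, Gm13910, that is 99.8% identical over 1428 bases and had 0 and 1 counts in Flag-IP against 0 in IgG-IP. How reads that fit both places were counted is not known, so the level of Hadhb is uncertain. With a trend on mRNA GC content removed, Hadhb no longer passed (log2 fold change -1.10, edgeR adjusted p = 0.182), and DESeq2 gave no adjusted p for it.

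The peroxisomal route is represented by Acox3, an acyl-CoA oxidase for branched chains (chromosome 5, 35583040 to 35615352). It had 18 and 32 counts in Flag-IP against 18 in IgG-IP, or 19.4 and 31.7 normalized counts against 17.0. Both Flag-IP libraries were above IgG-IP, Flag-IP 1 only slightly so. Its log2 fold change of 0.59 ± 0.56 (SE) did not pass (edgeR adjusted p = 0.553). Of the 11521 exon bases of Acox3, 700 overlap 4931431C16Rik on the opposite strand (2 and 4 counts in Flag-IP against 0 in IgG-IP).

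**Figure D2:**
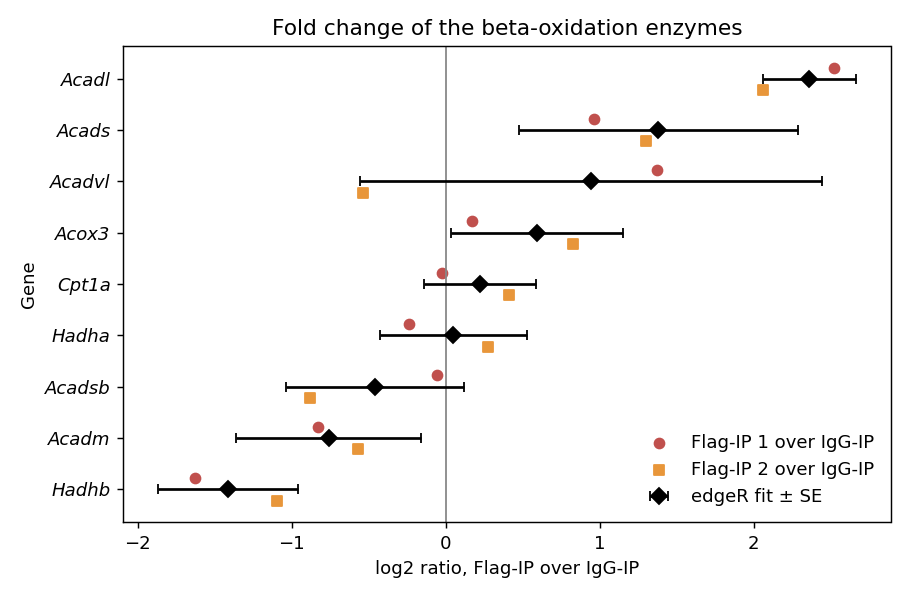
Log2 ratios of Flag-IP over IgG-IP for the 9 enzymes: diamonds with bars are the edgeR fit ± SE, and circles and squares are Flag-IP 1 and Flag-IP 2, each over the IgG-IP library with a prior count of 2. Acadl stands apart at 2.36, Hadhb is lowest at -1.41, and most other bars reach 0 or come near it.

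The authors' deposited table of lipid genes holds 3 of the 9 enzymes. In the authors' deposited table the ratio of Flag to IgG counts was 4.12 for Acadl, 2.83 for Acads and 1.78 for Acox3. The Flag column equals Flag-IP 2 for all 31 genes of the authors' deposited table, and the ratios are not scaled for depth. The same unscaled division with Flag-IP 1 gives 5.24 for Acadl, 2.00 for Acads and 1.00 for Acox3. For the 6 enzymes outside the list it gives 0.426 (Hadhb) to 1.28 (Cpt1a) with Flag-IP 2 and 0.259 (Hadhb) to 3.00 (Acadvl) with Flag-IP 1. The listed enzymes are thus those with the highest ratios in Flag-IP 2, and since the study chose the list on these samples, their direction there is not independent evidence.

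**Figure D3:**
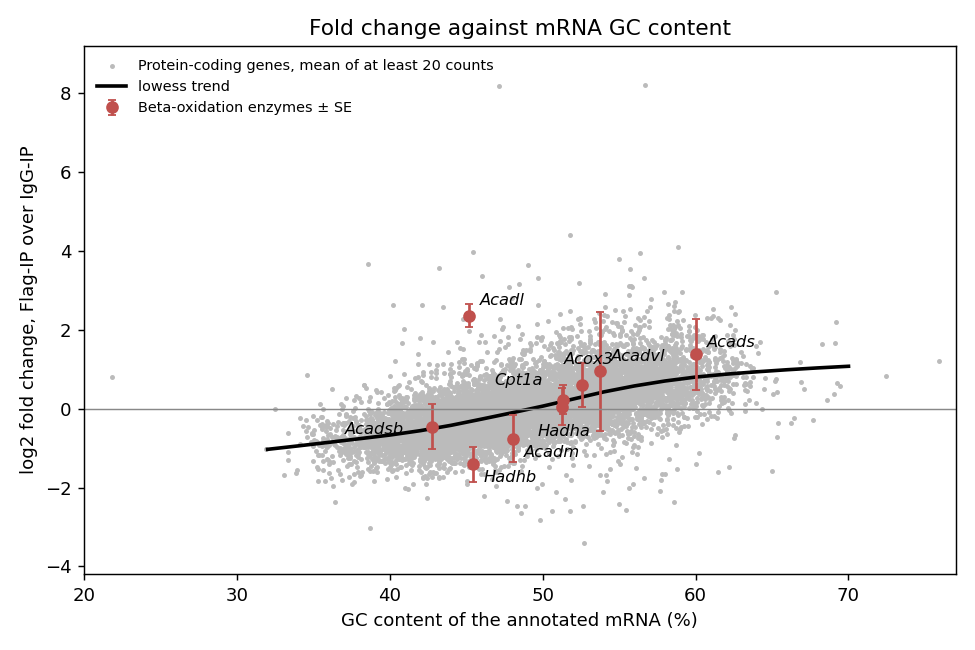
Log2 fold change (edgeR, Flag-IP over IgG-IP) against GC content of the annotated mRNA in percent, for protein-coding genes averaging 20 counts or more (grey), with their lowess trend (line) and the 9 enzymes ± SE (red). Most enzymes lie near the line, while Acadl at 45.1% GC lies far above it and Hadhb at 45.4% GC below it.

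GC content moved with the comparison over the whole table: Spearman's rho of mRNA GC with log2 fold change was 0.63 across 9084 protein-coding genes, which are no independent replicates. Over the 9 enzymes, which share their libraries, rho was 0.45. Acads, the most GC-rich of the enzymes at 60.1%, had the highest fold change of those that did not pass, and the trend alone stood at 0.80 there. Acadsb, the poorest at 42.7%, had -0.46 where the trend was -0.51. Acadl had 45.1% GC, where the trend was -0.33, so that its log2 fold change was 2.69 with the trend removed (edgeR adjusted p = 1.55e-16). The mRNAs of Acadl and Hadhb are alike in GC (45.1% and 45.4%) and in length (1916 and 2048 bases), and their fold changes had opposite signs. These are the enzymes that passed the test, and the part of GC or length in their difference was not tested.

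The other genes of fatty acid oxidation, 66 tested of 70 found in the table, mostly did not pass: 3 were higher in Flag-IP, 3 were lower and 60 passed in neither direction. In all, 14 of the 66 had an unadjusted p under 0.05 in edgeR, where 24.7% of all tested genes did, and DESeq2 called 0. The shares called are near those of all genes, and the median log2 fold change was 0.17, or -0.35 under total-count scaling. None of the genes for activation and the carnitine shuttle passed edgeR's test (0 of 12, and 0 at an unadjusted p under 0.05), among them Slc25a20, the carnitine-acylcarnitine carrier, with 23 and 30 counts in Flag-IP against 18 in IgG-IP. Acsl4, an acyl-CoA synthetase that prefers arachidonate, had 15 and 31 counts in Flag-IP against 41 in IgG-IP. None of the other acyl-CoA dehydrogenases and electron transfer genes passed it (0 of 10, and 1 at an unadjusted p under 0.05). Acad11 had 182 and 132 counts in Flag-IP against 124 in IgG-IP. Etfdh, which passes electrons from the dehydrogenases to ubiquinone, had 25 and 20 in Flag-IP against 30 in IgG-IP.

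Among the later mitochondrial steps 0 of 7 passed in edgeR, and 1 had an unadjusted p under 0.05. Decr1, the reductase needed for unsaturated chains, had 10 and 17 counts in Flag-IP against 34 in IgG-IP, a log2 fold change of -1.20 ± 0.56 (SE; edgeR adjusted p = 0.153). Eci2, an isomerase for the same purpose, had 28 and 25 counts in Flag-IP against 46 in IgG-IP. In the peroxisomal list 0 of 15 passed in edgeR, and 4 had an unadjusted p under 0.05. Acox2, an oxidase for bile acid intermediates, had 29 and 28 counts in Flag-IP against 19 in IgG-IP. The authors' deposited table also holds Acaa1a (9 and 17 counts in Flag-IP against 8 in IgG-IP), Acot8 (14 and 18 against 5) and Echs1 (7 and 10 against 5), which did not pass or were too low to test.

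In the list for propionyl-CoA and ketone bodies 2 of 8 tested genes passed, both lower, where 5.77% of all tested genes were lower. The same 2 were those with an unadjusted p under 0.05 in edgeR. Mut, the methylmalonyl-CoA mutase that finishes propionyl-CoA breakdown, was lower with 13 and 6 counts in Flag-IP against 40 in IgG-IP (log2 fold change -1.92 ± 0.57, SE; edgeR adjusted p = 0.0136). Pcca, a propionyl-CoA carboxylase subunit that acts before it, was lower with 198 and 262 counts in Flag-IP against 427 in IgG-IP (-0.77 ± 0.22, SE; edgeR adjusted p = 0.00846). Exons of Mut share 95 bases with Cenpq on the other strand (6 and 4 counts in Flag-IP against 17 in IgG-IP), and those of Pcca share 241 with Ggact (64 and 72 against 72). The other 6 tested genes of that list did not pass, among them Bdh1 of ketone body metabolism (30 and 37 counts in Flag-IP against 24 in IgG-IP).

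Of 14 regulators 3 were higher and 1 was lower, where 5.58% and 5.77% of all tested genes were. In edgeR 6 of the 14 had an unadjusted p under 0.05, where 24.7% of all tested genes did. Ppard, a fatty acid-sensing nuclear receptor that the authors' deposited table also holds, was higher with 84 and 102 counts in Flag-IP against 36 in IgG-IP. Rxra, its dimer partner, had 81 and 116 against 51 (1.07 ± 0.33, SE; edgeR adjusted p = 0.0157). Acacb, which makes the malonyl-CoA that inhibits Cpt1a, had 111 and 165 counts in Flag-IP against 88 in IgG-IP (0.77 ± 0.28, SE; edgeR adjusted p = 0.0487). Ppargc1a, a coactivator of oxidation genes, was lower with 49 and 70 counts in Flag-IP against 118 in IgG-IP (-0.86 ± 0.30, SE; edgeR adjusted p = 0.0424). The mRNAs of the higher genes had 59.8%, 57.0% and 56.7% GC, and that of Ppargc1a 41.7%. With the GC trend removed, 0 of the 66 genes passed in either direction in edgeR, while 6 were higher and 3 lower at an unadjusted p under 0.05, where 8.01% and 6.33% of all tested genes were.

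**Figure D4:**
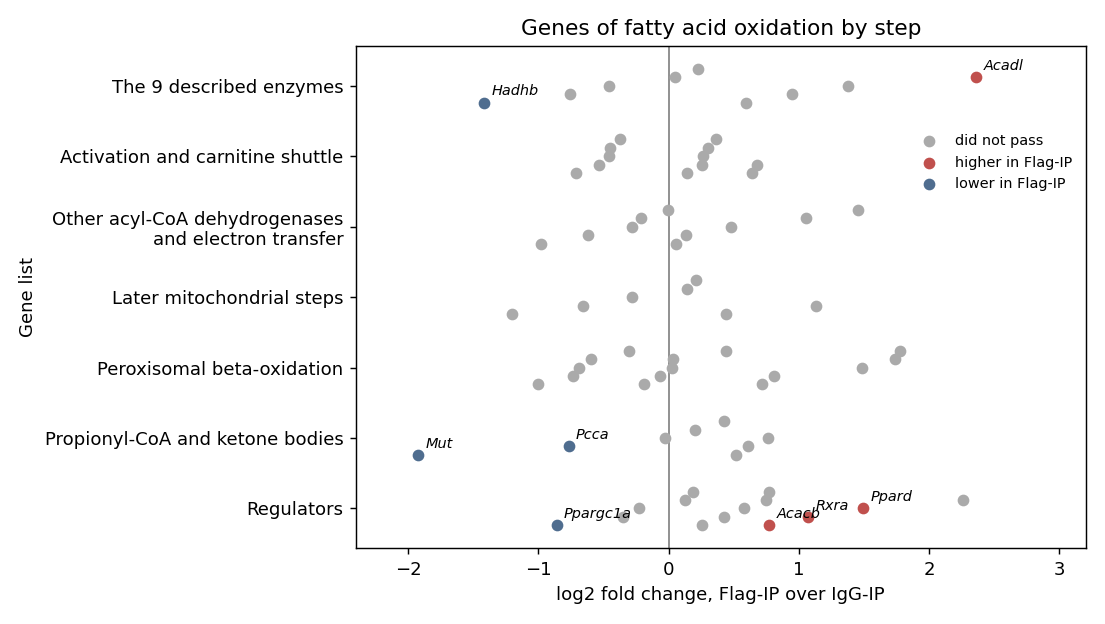
Log2 fold change (Flag-IP over IgG-IP) of each tested gene, by list, with vertical spacing only to separate points. Red genes were higher and blue genes lower in Flag-IP at an edgeR adjusted p under 0.05, and grey genes did not pass. Acadl at 2.36 is the highest and Mut at -1.92 the lowest of the oxidation genes plotted.

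Genes with single-library ratios most like those of Acadl, among 4978 that averaged 50 counts or more, were Cacna1h (94 and 77 counts in Flag-IP against 18 in IgG-IP), Safb (79 and 58 against 13) and Ctif (1330 and 1147 against 277). Their distances from it in the plane of the 2 log2 ratios were 0.08, 0.09 and 0.09. Cacna1h and Safb, like Acadl, met that filter through Flag-IP. The mRNAs of Cacna1h, Safb and Ctif had 60.0%, 55.7% and 56.3% GC, all above the 45.1% of Acadl. Across protein-coding genes, higher GC went with higher fold change.

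Skeletal muscle markers were mixed. Of 6 tested, 2 were higher in Flag-IP, Ckm (23 and 19 counts against 4 in IgG-IP) and Tnnt3 (39 and 26 against 9), and 4 did not pass. An unadjusted p under 0.05 in edgeR was found for 3 of the 6, and for 24.7% of all tested genes. In normalized counts 4 of the 6 lay above IgG-IP in both Flag-IP libraries. Ttn (218 and 236 counts in Flag-IP against 271 in IgG-IP) lay below it in both, and Myh1 (24 and 14 against 21) on either side. Summed normalized counts of the 7 listed muscle genes were 449 and 380 in Flag-IP against 342 in IgG-IP, or 407 and 355 against 333 without Tnnt3. Acta1 had 4 and 4 counts in Flag-IP against 0 in IgG-IP. The part of muscle genes in the Acadl result was not tested. Brown adipocyte genes had 0 of 3 past edgeR's test and 0 at an unadjusted p under 0.05 (summed normalized counts 58.2 and 62.4 in Flag-IP against 53.7 in IgG-IP), with Ucp1 at 4 and 4 counts in Flag-IP against 2 in IgG-IP. Of the leukocyte genes 1 of 4 was lower (220 and 268 against 379): Ptprc had 181 and 209 normalized counts in Flag-IP against 344 in IgG-IP, and the other 5 in the table together had 38.8 and 59.4 in Flag-IP against 34.9 in IgG-IP. Hepatocyte genes had 0 of 3 past edgeR's test (37.7 and 40.6 against 40.5), endothelial genes 0 of 5 (442 and 501 against 409) and fibroblast genes 0 of 5 (281 and 241 against 208), with 0, 1 and 1 at an unadjusted p under 0.05.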

How the data were processed

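RNA from 2 Flag-IP libraries and 1 IgG-IP library was sequenced by Illumina, per the labels. Tools and build in the submitters' processing notes are CASAVA 1.7, Bowtie 0.12.2 and mm8, while the counting program, its annotation and strand setting are not given. As deposited, the main table lists a raw count per Ensembl gene and library, and the authors' lipid table lists counts and their unscaled ratio. Positions, mRNA lengths and GC come from GENCODE M21 (GRCm38), matched by Ensembl identifier for 37693 of 39179 genes, with no mm8 coordinates. The annotated mRNA is the principal protein-coding transcript.

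Genes were kept by filterByExpr with a minimum count of 10. The quasi-likelihood test of edgeR 4.0.16 (R 4.3.3) used TMM factors of 0.840 (Flag-IP 1), 0.936 (Flag-IP 2) and 1.27 (IgG-IP). Its 1 residual degree of freedom comes from Flag-IP. The common dispersion, used by the likelihood ratio alternative, was 0.0359. Prior degrees of freedom were infinite for every gene, so p-values and errors use a spread shared between genes of similar abundance and not each gene's own. The lone IgG-IP library is assumed to vary alike. The SE is the log2 fold change divided by the square root of F. Near-identical copies were sought with minimap2 2.31 (at least 90% identity over 200 bases). The fit was tested on simulated data with changed genes added. It called 9 of 100 genes in the right direction at a log2 fold change of 1, and 78 of 100 at 2. It also called 2 of 17387 unchanged genes, a rate that holds for the simulated data only. Changes of the smaller size were thus mostly missed, so a gene that did not pass may still differ. In the real data the fit called 1996 genes, and 758 with the GC trend removed.

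The enzymes and lists were chosen with earlier results of these data known. All 9 enzymes are named. From the wider lists, genes past the threshold or in the authors' table are named, and in each list the 2 largest changes among genes averaging 20 counts or more. A gene this rule would also name is not reported here. The 3 genes nearest to Acadl are named too. Marker genes were named after their values were seen. Alternatives were other scalings and filters, DESeq2 1.42.0, a likelihood ratio test, prior counts, lowess trends (fitted over protein-coding genes averaging 20 counts or more) and leaving out each Flag-IP library. Intervals cover counting error only.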

Additional observations from a re-analysis of the deposited data

How the results depend on the processing

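Acadl was higher in Flag-IP in all 13 alternatives that gave it a value, with log2 fold changes from 1.83 to 2.69 and adjusted p of at most 4.07e-05 where there was a test (DESeq2). Under total-count scaling the median of all log2 fold changes moved by -0.52, 342 genes were higher and 3008 lower, 0 of the wider oxidation genes were higher and 8 lower, and Hadha (-0.46) and Cpt1a (-0.29) changed sign. With the GC trend removed 414 genes were higher and 344 lower, 0 of the 9 enzymes were lower, 0 wider genes were higher and 0 lower, and Hadha (-0.13) and Acadsb (0.055) changed sign. With GC and span trends removed the counts were 381 higher and 255 lower, again 0 enzymes lower and 0 wider genes in either direction, with Hadha at -0.21. DESeq2 called 131 higher and 145 lower, 0 enzymes lower and 0 wider genes in either direction, but gave no adjusted p for 15684 genes, among them the 8 enzymes other than Acadl (unadjusted p = 0.103 for Hadhb). With a mean of at least 50 counts required, 0 enzymes were lower because Hadhb (mean 30.3) was left out. With the likelihood ratio test 1 wider gene was lower, and with no filter Hadha stood at -0.0054. Hadhb ranged from -1.92 to -1.09. Without either Flag-IP library, as values with no test, Acadl stood at 2.06 and 2.52 and Acadvl at -0.54 and 1.37. The cause was not tested. No paired analysis was possible because IgG-IP has 1 library. Enzymes with few counts had wide 95% counting intervals of Flag-IP over IgG-IP, 0.333 to 1.05 for Acadm and 0.602 to 8.00 for Acadvl, so depth limits the precision of their ratios.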
